A study of Mus musculus with 12 samples.

Results

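The Toll-like receptors and their co-receptor Cd14 were followed across 4 populations of EGFR+ cells sorted from mouse glioblastomas (GBMs). The members are the 10 rows of the deposited expression table that carry the symbols Tlr1, Tlr2, Tlr3, Tlr4, Tlr6, Tlr7, Tlr8, Tlr9, Tlr13 and Cd14, out of 18180 genes in all. Each of 3 tumors, T3, T4 and T5, was sorted into EGFR+PDGFRA+, EGFR+PDGFRA-, EGFR+GAL1+ and EGFR+GAL1- cells, which gives 12 bulk RNA-seq libraries with 1 library per population and tumor. The populations are written PDGFRA+, PDGFRA-, GAL1+ and GAL1- from here on. All tumors were end-stage, no treatment is given for them, and all share the same engineered alleles. Among these, they overexpress human EGFR from a conditional transgene switched on by Cre, lack Cdkn2a and hold a conditional luciferase reporter. Tumors were started by injecting a Cre lentivirus into the striatum of adult mice of a mixed background, for which the labels list C57Bl/6J, 129S4, FVBN/J and Balb/cJ and the study's methods also SJL. Both sorts used the same EGFR antibody, combined with an antibody to PDGFR or to Galectin-1, the product of Lgals1. The study calls the sorted cells CD45-, while its methods for this sort name no CD45 antibody.

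Toll-like receptors detect molecules shed by microbes or released by damaged cells. Tlr1, Tlr2, Tlr4 and Tlr6 act at the cell surface on lipids and lipoproteins, with Tlr1 and Tlr6 each pairing with Tlr2, and Cd14 hands lipopolysaccharide to the complex of Tlr4 and Ly96. Tlr3, Tlr7, Tlr8, Tlr9 and Tlr13 act in endosomes on nucleic acids. In the brain most of these receptors are known from microglia and macrophages, whereas Tlr3 is also known from astrocytes and neurons.

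Expression is given as log2 CPM, the log2 of read counts scaled to the size of each library by TMM and voom. Reads per library, recovered from the smallest value in each library, ran from 9851175 to 24117541 and were most numerous in the GAL1- libraries. A level of 3 reads, taken as the floor, lay between -2.99 and -1.44 log2 CPM, for counting error only. No member was at or under the floor in any library, and the smallest value was the 4 reads of Tlr8 in the GAL1- library of T3. On the log2 scale, GAL1+ cells had 1.29 more Lgals1 than GAL1- cells (SE 0.22, limma adjusted p = 0.000967). Pdgfra was 1.60 higher in PDGFRA+ than in PDGFRA- cells (SE 0.41, limma adjusted p = 0.249), higher in 3 of 3 tumors but not called. Egfr was lower in GAL1+ than in GAL1- cells by log2 -2.10 (SE 0.32, limma adjusted p = 0.000461), and whether reads of the human transgene were counted on this mouse row is not given in the sources used here.

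The leukocyte gene Ptprc, which encodes CD45, was detected in every population. Its mean log2 CPM was 4.60 ± 0.79 (SD, n = 3 tumors) for GAL1-, 6.92 ± 0.70 for PDGFRA+, 7.46 ± 1.06 for PDGFRA- and 8.65 ± 0.40 for GAL1+ libraries. The summed CPM of 12 pan-leukocyte genes ran from 92.4 to 246 in the GAL1- libraries, from 714 to 1719 in PDGFRA+, from 793 to 3442 in PDGFRA- and from 3218 to 4378 in GAL1+. All 9 microglia markers and all 8 macrophage markers in the table were called higher by limma in GAL1+ cells against GAL1- cells, as were all 9 endothelial and all 6 pericyte markers, where 28.9% of all genes were called higher. Fewer were called higher of the neutrophil markers (4 of 8) and the dendritic cell markers (2 of 4), and of 8 T and NK cell markers 1 was called higher and 1 lower. None of the 6 B cell markers was in the table, and of the neutrophil markers Ly6g, Retnlg and Camp were not. The 7 oligodendrocyte progenitor and 5 mature oligodendrocyte markers were all called lower in GAL1+ cells, as were 3 of 7 astrocyte markers, where 29.3% of all genes were called lower. In this contrast the microglia, macrophage, endothelial and pericyte lists moved in the direction of the members described here, and the oligodendrocyte lists moved against it. In PDGFRA+ over GAL1+ cells, 8 of 8 macrophage, 6 of 8 neutrophil and 5 of 9 microglia markers were called lower, where 17% of all genes were. All 7 oligodendrocyte progenitor and 3 of 7 astrocyte markers were called higher, where 20.9% of all genes were. Of the T and NK cell markers 1 was called higher and 1 lower. For these populations 0 endothelial, 0 pericyte, 0 dendritic cell and 0 mature oligodendrocyte markers were called. The part of these lists in the results was not tested. The members' levels relative to the pan-leukocyte genes are given after the contrasts. In sorted bulk samples, fewer cells of a type and less RNA per cell cannot be told apart. The PDGFRA- library of T5 stood apart from the other PDGFRA- libraries, with Ptprc at 8.66 log2 CPM against 7.08 in T3 and 6.65 in T4, and Egfr at 8.16 against 10.18 and 10.02. For contrasts of PDGFRA- cells, the number of members called is given with and without it.

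RefSeq promoter windows (GRCm38.p6, 250 bases before to 50 after the start) were at hand for 7 of the 10 members, with 9 windows in all, and 4 are shown because their genes span the range of the differences between populations. Both strands were searched for GAGGAA, a core sequence in sites of the myeloid ETS factor PU.1, and for the NF-kB consensus. Capitals mark the matches. GAGGAA was found for Tlr1, Tlr8, Tlr9 and Tlr13, and in 28.3% of 32851 promoters of the same length. The NF-kB consensus was found for Tlr2 and Tlr3 and in 4.51% of promoters. In the Tlr2 window the capitals fall in 2 stretches, both NF-kB matches, and no printed stretch is shared by different motifs.
Tlr8 (chrX:167264280-167264579, minus strand): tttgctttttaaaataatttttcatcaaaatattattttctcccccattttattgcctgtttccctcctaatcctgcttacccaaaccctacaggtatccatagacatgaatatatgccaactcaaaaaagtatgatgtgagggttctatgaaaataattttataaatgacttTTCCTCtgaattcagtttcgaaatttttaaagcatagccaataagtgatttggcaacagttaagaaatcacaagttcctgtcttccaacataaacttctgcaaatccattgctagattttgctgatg
Tlr13 (chrX:106143025-106143324, plus strand): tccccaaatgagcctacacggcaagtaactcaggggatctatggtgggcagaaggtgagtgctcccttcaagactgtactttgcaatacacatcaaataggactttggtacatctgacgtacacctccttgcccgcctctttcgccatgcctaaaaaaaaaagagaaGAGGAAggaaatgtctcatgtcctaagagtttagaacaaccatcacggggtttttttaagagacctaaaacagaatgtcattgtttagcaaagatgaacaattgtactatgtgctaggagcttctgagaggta
Tlr2 (chr3:83841559-83841858, minus strand): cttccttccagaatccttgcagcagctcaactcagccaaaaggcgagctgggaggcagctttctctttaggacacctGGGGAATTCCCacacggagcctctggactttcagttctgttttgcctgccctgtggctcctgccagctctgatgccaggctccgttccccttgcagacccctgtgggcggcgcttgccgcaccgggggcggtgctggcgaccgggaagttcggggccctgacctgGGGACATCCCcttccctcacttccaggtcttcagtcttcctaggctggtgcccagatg
Tlr3 (chr8:45410331-45410630, minus strand): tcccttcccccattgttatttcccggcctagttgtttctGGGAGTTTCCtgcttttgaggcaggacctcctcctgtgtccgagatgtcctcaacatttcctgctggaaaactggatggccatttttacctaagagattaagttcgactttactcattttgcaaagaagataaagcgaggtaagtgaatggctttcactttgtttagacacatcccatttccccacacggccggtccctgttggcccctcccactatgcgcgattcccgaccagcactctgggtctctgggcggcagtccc
Tlr8 had the largest difference between GAL1+ and GAL1- cells of the 10 members, Tlr13 and Tlr2 had differences near the median, and Tlr3 had the smallest. A match is a description of these letters only, and no match says nothing of the factor.

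The surface receptors were lowest in GAL1- and highest in GAL1+ cells. Tlr2, the partner shared by Tlr1 and Tlr6, had a log2 CPM of 2.55, 3.97 and 2.97 in the GAL1- libraries of T3, T4 and T5. It stood at 5.98, 7.41 and 6.85 in PDGFRA+, at 6.52, 5.59 and 7.05 in PDGFRA-, and at 8.24, 8.62 and 8.29 in GAL1+ cells. The GAL1- libraries lay below all others and the GAL1+ libraries above all others, while the PDGFRA+ and PDGFRA- libraries overlapped. Tlr1 covered a wide range, from -1.48, -0.33 and -1.72 in GAL1- to 3.73, 4.15 and 4.18 in GAL1+ cells. Between them were PDGFRA+ at 1.27, 2.84 and 2.57 and PDGFRA- at 1.91, 1.56 and 4.25, so that the PDGFRA- library of T5 lay above all 3 GAL1+ libraries. Tlr6 moved least of the surface receptors. Its log2 CPM was 0.45, 0.23 and 1.45 for GAL1-, 1.999, 1.29 and 1.83 for PDGFRA+, 2.02, 2.21 and 2.97 for PDGFRA- and 2.74, 2.52 and 3.12 for GAL1+ cells. The GAL1- library of T5 overlapped the PDGFRA+ libraries. Of the 75-base stretches of the Tlr1 transcripts, 10.6% also occur in other genes, Tlr6 among them, and 9.25% of those of Tlr6 occur in Tlr1, so reads of this pair are partly uncertain.

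Tlr4, the lipopolysaccharide receptor, was at 1.35, 2.56 and 3.42 log2 CPM for GAL1-, 3.32, 4.10 and 4.07 for PDGFRA+, 3.69, 3.95 and 5.31 for PDGFRA- and 4.95, 5.22 and 5.47 for GAL1+ cells. In T5 the GAL1- library reached the range of the PDGFRA+ libraries. Cd14 had the highest values of all members. Its log2 CPM was 4.69, 5.71 and 5.91 for GAL1-, 8.36, 9.32 and 9.68 for PDGFRA+, 9.14, 8.18 and 10.62 for PDGFRA- and 10.67, 10.56 and 10.97 for GAL1+ cells. The GAL1- libraries again lay below all others, and the PDGFRA- library of T5 fell among the GAL1+ libraries.

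**Figure D1:**
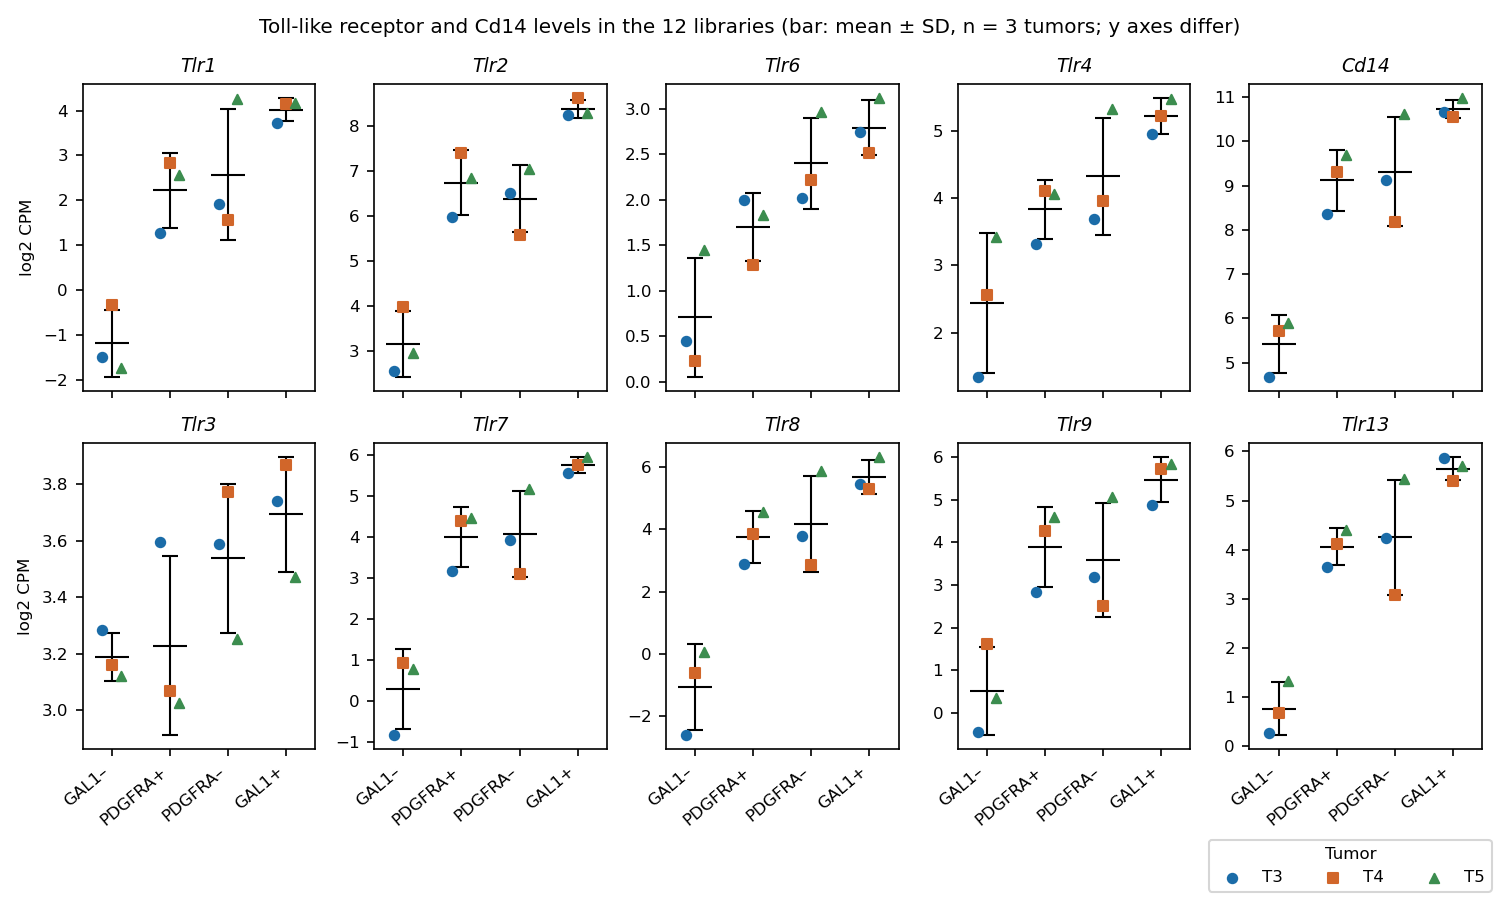
Level of each member (log2 CPM, y axis, own range per panel) in the 4 populations, with a point per tumor and a bar at the mean ± SD (n = 3). Tlr3 keeps within 3.02 to 3.87 in all 12 libraries, whereas Tlr8 runs from -2.63 to 6.32.

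Among the endosomal receptors, Tlr8, which senses RNA fragments in human cells, covered the widest range. It stood at -2.63, -0.62 and 0.04 log2 CPM for GAL1-, at 2.87, 3.87 and 4.55 for PDGFRA+, at 3.80, 2.85 and 5.87 for PDGFRA- and at 5.45, 5.30 and 6.32 for GAL1+ cells. The GAL1- values rest on 4, 15 and 25 reads. Tlr7, the related receptor for single-stranded RNA, was at -0.83, 0.93 and 0.78 for GAL1-, at 3.16, 4.39 and 4.46 for PDGFRA+, at 3.93, 3.10 and 5.18 for PDGFRA- and at 5.56, 5.76 and 5.94 for GAL1+ cells. All GAL1+ libraries lay above all others for Tlr7, but not for Tlr8. Tlr9, the receptor for unmethylated CpG DNA, ran from -0.44 to 1.62 for GAL1-, from 2.83 to 4.59 for PDGFRA+, from 2.50 to 5.07 in PDGFRA- and from 4.87 to 5.83 in GAL1+ cells. Tlr13, which detects bacterial ribosomal RNA and has no human counterpart, ran from 0.27 to 1.34, from 3.66 to 4.41, from 3.09 to 5.43 and from 5.40 to 5.86 in the same order of populations. For both genes the GAL1- libraries lay below all others, and the PDGFRA- library of T5 was inside the GAL1+ range.

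Tlr3, the receptor for double-stranded RNA, differed from this picture. Its log2 CPM was 3.28, 3.16 and 3.12 for GAL1-, 3.60, 3.07 and 3.02 for PDGFRA+, 3.59, 3.77 and 3.25 for PDGFRA- and 3.74, 3.87 and 3.47 for GAL1+ cells. The GAL1- libraries lay below the GAL1+ libraries but among the PDGFRA+ libraries. It was detected at 94 reads or more in every library. The Tlr3 gene shares 381 exon bases with the antisense gene Gm45542, and the strand setting of the counting is not given in the sources used here, so reads there cannot be told apart.

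In mean level, GAL1- was lowest and GAL1+ highest for all 10 members. PDGFRA+ came below PDGFRA- for 8 of them, and above it for Tlr2 and Tlr9. These neighbours in the order were not separated by the test of PDGFRA+ against PDGFRA- for any member. Tlr3 also did not differ beyond its spread between GAL1- and PDGFRA+ cells.

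Levels of different members were compared per kilobase of exon (GENCODE gene models, GRCm38). In GAL1+ cells Cd14 stood at 9.94 ± 0.21 log2 CPM per kilobase (SD, n = 3 tumors) and Tlr2 at 6.79 ± 0.20. Tlr8, Tlr7, Tlr9 and Tlr13 followed closely together at 3.85 ± 0.55, 3.72 ± 0.19, 3.67 ± 0.53 and 3.55 ± 0.23, and did not differ from each other beyond their spread. Tlr4 at 2.74 ± 0.26, Tlr1 at 2.28 ± 0.25, Tlr3 at 1.31 ± 0.20 and Tlr6 at 0.89 ± 0.30 were lowest. In GAL1- cells Cd14 and Tlr2 still led, at 4.64 ± 0.65 and 1.57 ± 0.73, but Tlr3 was next at 0.81 ± 0.08, and Tlr8 and Tlr1 were last at -2.91 ± 1.39 and -2.92 ± 0.74. By these means Tlr3 was in rank 3 of the members in GAL1- cells and in rank 9 in GAL1+ cells. Its rank in GAL1- cells did not hold in every tumor, since Tlr4, at a mean of -0.03 ± 1.04, reached 0.95 in T5, where Tlr3 was at 0.74.

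**Figure D2:**
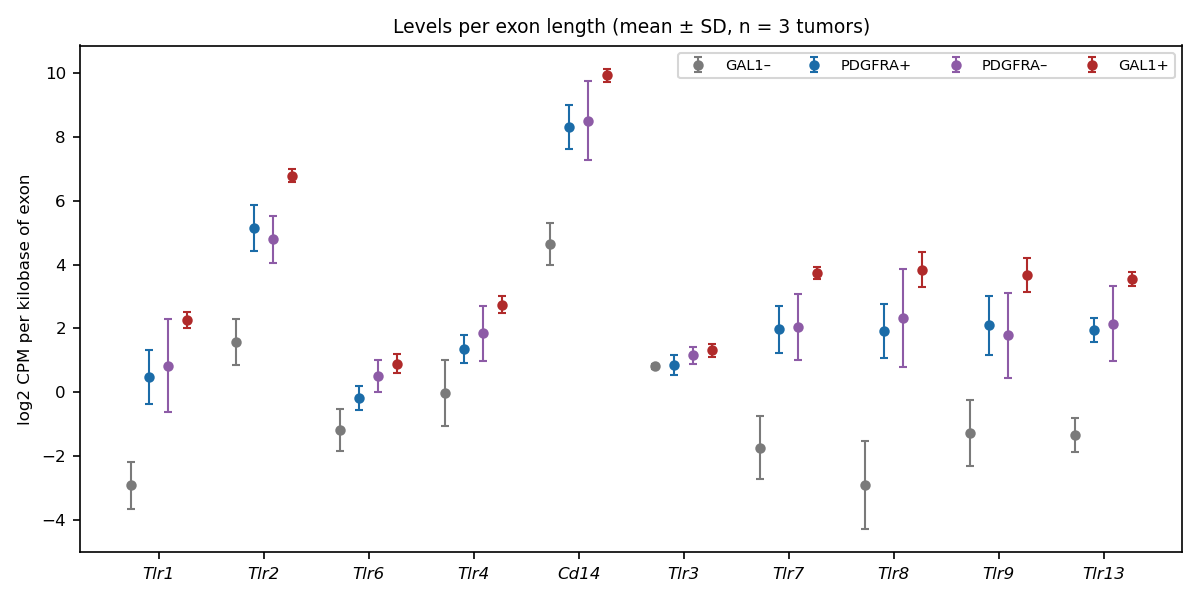
Level per exon length of each member (y axis, log2 CPM per kilobase) in the 4 populations, as mean ± SD over 3 tumors. In GAL1+ cells Cd14 and Tlr2 stand at 9.94 and 6.79, and in GAL1- cells the mean of Tlr3, at 0.81, exceeds every member's mean but theirs, with the error bar of Tlr4 reaching above it.

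GAL1+ cells were compared with GAL1- cells to ask how the Galectin-1-positive cells of these tumors differ from the remainder of the EGFR+ gate. All 10 members were called higher in GAL1+ cells (limma with the tumor as a block, adjusted p under 0.05 over all genes), where 28.9% of all genes were called higher. The differences were present in 3 of 3 tumors for each member. The median log2 fold change of the members was 5.08, against -0.03 over all genes. Tlr8 was 6.76 higher on the log2 scale (SE 0.51, adjusted p = 3.93e-05 by limma), a 108-fold difference. Without T3 it was 6.10, or 68.6-fold, and on log2 of CPM plus 1, a scale that understates changes of low genes, it was 5.06, or 33.5-fold. Tlr7 was 5.46 higher (SE 0.45), Cd14 5.30 higher (SE 0.41), Tlr2 5.22 higher (SE 0.43) and Tlr1 5.20 higher (SE 0.61). Tlr1 was at 4.56 without the GAL1- library of T5, and on log2 of CPM plus 1 Tlr1, Tlr7, Tlr9 and Tlr13 were at 3.55, 4.57, 4.17 and 4.23. Tlr9 and Tlr13 were 4.96 (SE 0.56) and 4.89 (SE 0.39) higher, with Tlr9 at 5.60 without the GAL1- library of T4. Tlr4 and Tlr6 changed less, at 2.77 (SE 0.30) and 2.08 (SE 0.25), which is 6.83-fold and 4.24-fold. Tlr3 was higher by 0.50 (95% interval 0.13 to 0.88, adjusted p = 0.0266 by limma), or 1.42-fold. The GAL1+ and GAL1- libraries did not overlap for any of the 10 members, against 30.1% of all genes with GAL1+ libraries above all GAL1- libraries. Only the call for Tlr3 depended on single samples. It was lost without each tumor in turn (adjusted p of 0.0912 without T3, 0.145 without T4 and 0.0811 without T5, by limma), without the GAL1- library of T3 (0.0834) or T4 (0.102), without the GAL1+ library of T4 (0.111) or T5 (0.0592), and without the tumor block (0.0694).

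PDGFRA+ cells were compared with GAL1+ cells, the contrast the sort was made for. In this comparison 9 of 10 members were called lower in PDGFRA+ cells by limma, where 17% of all genes were called lower. The same 9 did not overlap between the populations, against 22.5% of all genes. Their log2 fold changes ran from -1.92 for Tlr8 to -1.09 for Tlr6, with Tlr1 at -1.80, Tlr7 at -1.75, Tlr2 at -1.64 and Cd14 at -1.61, and every difference was negative in 3 of 3 tumors. Tlr4 had the smallest adjusted p (-1.38, SE 0.30, adjusted p = 0.00777 by limma). Tlr3 differed by -0.46 (95% interval -0.84 to -0.09, adjusted p = 0.0536 by limma) and was not called. The median over the members was -1.60, against 0.01 over all genes. The number of calls depended on the libraries. It was 1 without T3, 4 without T5, 1 without the PDGFRA+ library of T5, 3 without that of T3, and 2 without the GAL1+ library of either T3 or T4. It was 2 without the tumor block.

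The comparison with GAL1- cells placed PDGFRA+ cells in between. In PDGFRA+ cells 9 members were called higher than in GAL1- cells by limma, where 8.26% of all genes were called higher, and the libraries of 7 did not overlap, against 15.3% of all genes. Tlr8 was 4.84 higher on the log2 scale (SE 0.51, adjusted p = 0.00164 by limma), Tlr7 3.71 higher, Cd14 3.69 higher, Tlr2 3.58 higher, and Tlr1, Tlr9 and Tlr13 3.40, 3.39 and 3.30 higher. Tlr4 and Tlr6 were 1.39 and 1.00 higher and overlapped. Both calls were lost without the tumor block (adjusted p of 0.252 and 0.251 by limma), which left 7 members called. The call of Tlr6 held in 4 of 9 other settings and in 5 of 15 fits that left out a tumor or library, and that of Tlr4 in 8 and 10. Tlr3 did not pass the test and differed by 0.04 (95% interval -0.34 to 0.42, adjusted p = 0.924 by limma), an interval that leaves out changes as large as those of the other members in this contrast. Without T3, none of the 10 was called in this contrast.

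PDGFRA- cells differed from GAL1+ cells at fewer members. By limma, 5 were called lower, where 6.91% of all genes were called lower. These were Tlr2 (-1.996, SE 0.43, adjusted p = 0.0165 by limma), Tlr9 (-1.88), Tlr7 (-1.68), Cd14 (-1.42) and Tlr13 (-1.40). The libraries of Tlr2 and Tlr7 did not overlap, against 7.79% of all genes with PDGFRA- libraries lowest. Tlr8 (-1.51), Tlr1 (-1.44), Tlr4 (-0.90), Tlr6 (-0.39) and Tlr3 (-0.16) did not pass the test. In T5 the members' differences had a median of -0.31 on the log2 scale, against -1.62 in T3 and -2.41 in T4. Without the PDGFRA- library of T5, 8 members were called, and without T3 or T4 none was. Other samples moved the count as well, to 1 without the PDGFRA- library of T3 or T4 or the GAL1+ library of T3, to 0 without the GAL1+ library of T4, and to 2 without the GAL1+ library of T5 or the PDGFRA+ library of T3 or T5. The count was 1 without the tumor block and 2 without the mean-variance trend.

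No member was called between PDGFRA+ and PDGFRA- cells by limma, where 0% of all genes were called. With voom weights on recovered reads 0 members were called. At an unadjusted p under 0.05, 1 of 10 members and 2137 of 18180 genes passed, so the members' share was no larger than that of all genes. That member was Tlr6, at a log2 fold change of -0.70 (95% interval -1.27 to -0.13, adjusted p = 0.351 by limma), and it was the member whose PDGFRA+ libraries all lay below the PDGFRA- libraries, against 3.43% of all genes. The gap was narrow, between 1.999 log2 CPM in PDGFRA+ and 2.02 in PDGFRA- cells, both of T3. The other members had estimates from -0.49 for Tlr4 to 0.36 for Tlr2, with intervals as wide as -1.73 to 1.02 for Tlr1. The tumors disagreed. In T4, 8 members were higher in PDGFRA+ cells, with a median difference of 1.09, while in T3 and T5 9 and 10 members were lower, with medians of -0.56 and -0.98. Ptprc followed the same split, at 0.68 in T4, -0.97 in T3 and -1.35 in T5, and its part in the members' split was not tested. Without the PDGFRA- library of T5 the estimates of Tlr1, Tlr7, Tlr8, Tlr13 and Cd14 changed sign, to 0.49, 0.30, 0.02, 0.24 and 0.25, and still no member was called.

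**Figure D3:**
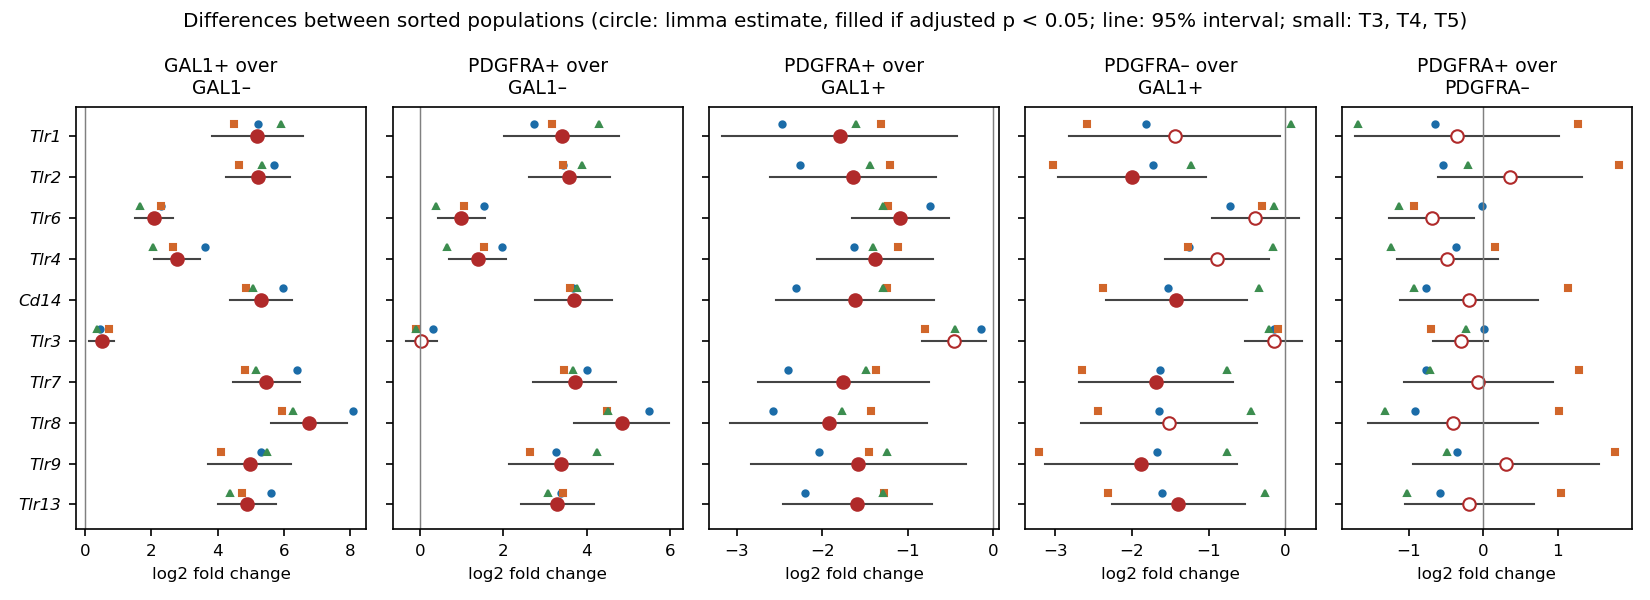
Log2 fold change of each member (x axis, own range per panel) in 5 contrasts, with 95% intervals, filled circles for calls at an adjusted p under 0.05, and small points for each tumor. In GAL1+ over GAL1- every member is above 0, and in PDGFRA+ over PDGFRA- the T4 points of most members lie opposite to those of T3 and T5.

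The members were then measured against the mean log2 CPM of 12 pan-leukocyte genes of the same library, so that 0 stands for a gene that changed as much as these genes did. From GAL1- to GAL1+ cells their mean level went up and from GAL1+ to PDGFRA+ cells it went down, so a gene that changed less than they did has a negative value in the first contrast and a positive value in the second. Every gene carries the same subtracted values, so variances become alike and limma pools them more than on the log2 CPM scale. The p-values, intervals and shares of genes called on this scale are therefore likely overconfident. In GAL1+ over GAL1- cells, Tlr8 was 2.23 higher relative to the pan-leukocyte genes (SE 0.55, adjusted p = 0.000216 by limma), in 3 of 3 tumors. It was among 0.413% of all genes called higher on this scale. Tlr4, Tlr6 and Tlr3 were lower by -1.75, -2.44 and -4.02, like 95.2% of all genes, so their calls on this scale set them apart from the other members but not from the genes at large. Tlr1, Tlr2, Tlr7, Tlr9, Tlr13 and Cd14 were at 0.36 to 0.94 and were not called, with intervals such as -0.26 to 1.80 for Cd14. The direction of these 6 turned under a scaling on the macrophage list, which moved Cd14 to -0.86 and Tlr13 to -1.28. The call of Tlr8 was lost on that scale (0.59, adjusted p = 0.265 by limma), and Tlr9 (-1.20, adjusted p = 0.0233) and Tlr13 (adjusted p = 0.0156) were called lower. Without T3 the calls of Tlr8 (1.87, adjusted p = 0.0548 by limma) and Tlr4 (-1.88, adjusted p = 0.0522) were lost, and without T5 that of Tlr4 (-1.42, adjusted p = 0.0883). In PDGFRA+ over GAL1+ cells, none of the 10 was called relative to the pan-leukocyte genes, where 66.1% of all genes were called higher and 0% lower, and 0 members had an unadjusted p under 0.05. The estimates ran from -0.34 for Tlr8 to 1.12 for Tlr3 (95% interval -0.06 to 2.30), and Tlr3 was called without T4. Of the 9 members called lower in PDGFRA+ cells on the log2 CPM scale, all but Tlr6 (0.50) lay between -0.34 and 0.20 relative to the pan-leukocyte genes.

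**Figure D4:**
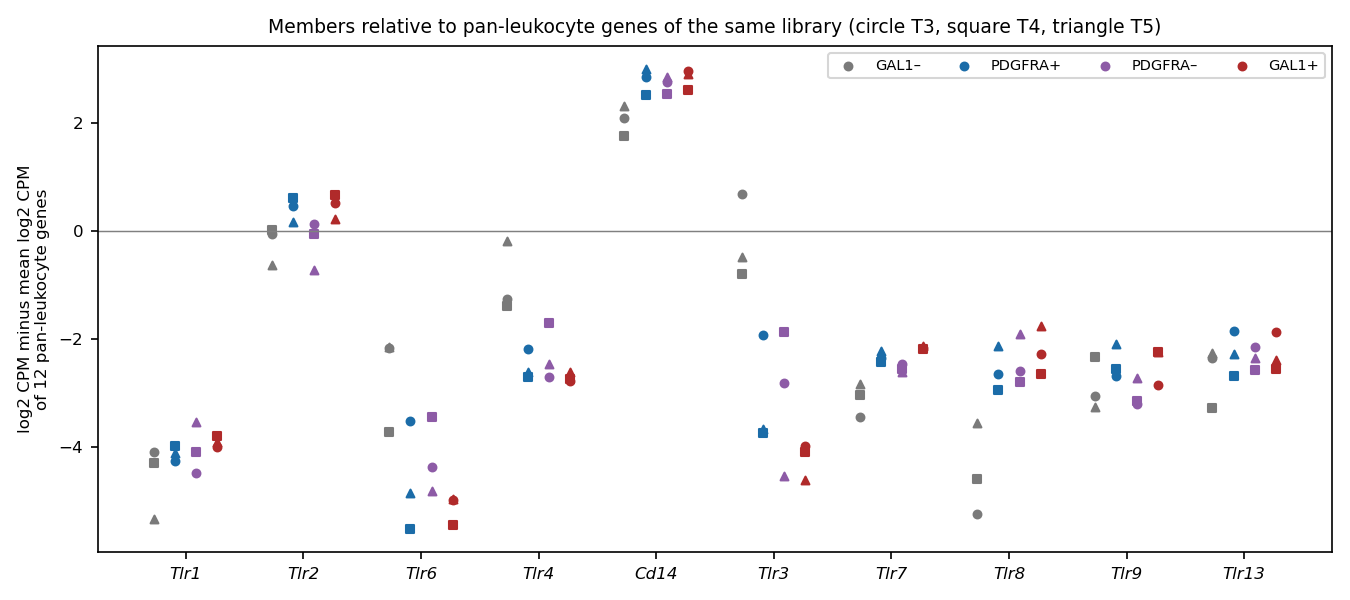
Each member's log2 CPM minus the mean log2 CPM of 12 pan-leukocyte genes in the same library (y axis), by population (color) and tumor (shape). All 3 GAL1- values of Tlr3 and of Tlr4 lie above those of the other populations, and all 3 of Tlr7, of Tlr8 and of Cd14 lie below them.

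Across the 12 libraries the members other than Tlr3 went up and down together. Pearson's r over their 36 pairs ran from 0.780 to 0.995, with a median of 0.959. Tlr3 had an r of 0.298 to 0.528 with each of the other 9. With the pan-leukocyte mean, Tlr7 had an r of 0.996, Cd14 0.994, Tlr4 0.939, Tlr6 0.851 and Tlr3 0.373. Over the 9 libraries without GAL1-, r was 0.649 for Tlr6 and -0.015 for Tlr3, and from 0.913 to 0.989 for the other 8. Libraries with the same number are taken to share a tumor and the libraries of a population share a gate, so these values describe the 12 libraries and carry no test.

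The genes most like each member were named by the highest r over the 12 libraries. For Cd14 they were Ms4a6c, Hpse and Fcgr3, an Fc receptor of myeloid cells (all at 0.999). Tlr7 was closest to Ctsz, a cathepsin, Tyrobp, the adaptor of many myeloid receptors, and Laptm5 (0.997 to 0.998). Tlr8 was closest to Mrc1, the macrophage mannose receptor, Ms4a4a and C5ar1 (0.994 to 0.998), and Tlr13 to Lyz2, the lysozyme of myeloid cells, Hk3 and C5ar1 (each at 0.995). Tlr2 was closest to Ctsd, Il1a and Slc7a8 (0.994 to 0.996), Tlr9 to Ctse, Lrrc3 and Hvcn1 (0.994 to 0.996), and Tlr1 to Tmem119, a microglial gene, F11r and Cd84 (0.992 to 0.995). Tlr4 was closest to Mdfic, Myof and Gvin2 (0.983 to 0.986) and Tlr6 to Xbp1, Arg2 and Ifi203-ps (0.948 to 0.956). For Tlr3 the matches were looser, among them Cab39l (0.860) and Lman1, a cargo receptor of the secretory pathway (0.854).

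Other genes of the pathway were read from a list of 56, of which 55 were in the table. In GAL1+ over GAL1- cells 41 were called higher and 3 lower by limma, against 28.9% and 29.3% of all genes, with a median log2 fold change of 1.28. All 5 ligand binding partners were higher. Cd36, a scavenger receptor that works with Tlr2 and Tlr6, was 6.39 higher on the log2 scale (SE 0.46), and Cd180 and its partner Ly86 were 5.68 (SE 0.60) and 5.62 (SE 0.53) higher. Ly96, which Tlr4 needs to bind lipopolysaccharide, was 2.41 higher (SE 0.33), a change close to the 2.77 of Tlr4. Its GAL1- mean was low, at -1.53 log2 CPM, so this value is limited by depth. Of the further receptors, Tlr12 was 5.20 higher (SE 0.71), with GAL1- values that rest on 4, 32.2 and 16 reads. Tlr5, the flagellin receptor, differed by -0.44 (SE 0.19, adjusted p = 0.0716 by limma) and was not called.

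Among the 7 genes for folding, transport and endosomal control, 6 were higher. Unc93b1, the chaperone that carries Tlr3, Tlr7, Tlr9 and Tlr13 to endosomes, was 4.17 higher (SE 0.39). Hsp90b1, which folds most of the receptors, was 0.75 higher (SE 0.13), and Cnpy4 was at -0.07 (adjusted p = 0.673 by limma). Of the 5 adaptors 4 were higher. Myd88, used by all members but Tlr3 and Cd14, was 1.63 higher (SE 0.28), and Ticam1, the adaptor of Tlr3, was 1.68 higher (SE 0.17). Ticam2, the bridging adaptor of Tlr4, was 4.03 higher (SE 0.45), whereas Tirap, which brings Myd88 to surface receptors, was lower, at -0.56 (SE 0.15, adjusted p = 0.0105 by limma).

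Of the 15 kinases and ubiquitin ligases, 10 were higher and 1 lower. Btk, a kinase of myeloid and B cells, was 5.34 higher (SE 0.39), Irak2 3.80 higher (SE 0.33) and Ikbke 3.59 higher (SE 0.34). Irak1 (0.33, adjusted p = 0.0534 by limma), Map3k7 (0.07), Tab3 (0.32) and Chuk (-0.01) did not pass the test, and Tab1 was lower, at -0.75 (SE 0.16). Transcription factors were higher for 6 of 7, from Irf5 (4.35, SE 0.41) and Irf7 (3.01, SE 0.32) to Rela (0.84, SE 0.13), and Irf3 was at 0.41 (adjusted p = 0.0562 by limma). Inhibitors of the pathway were higher for 9 of 10, among them Nrros at 4.31 (SE 0.44) and Tnfaip3 at 2.38 (SE 0.25). The exception was Sarm1, an adaptor family member best known from axon degeneration in neurons, which was lower at -2.22 (SE 0.33). None of the 4 endogenous ligands (S100a8, S100a9, Hmgb1 and Hspd1) was called by limma, also none at an unadjusted p under 0.05.

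In PDGFRA+ over GAL1+ cells 35 of the 55 genes were called lower and 3 higher, against 17% and 20.9% of all genes. Cd36 (-1.87, SE 0.46), Cd180 (-1.78, SE 0.60) and Btk (-1.66, SE 0.39) were lowest, and Sarm1 (2.03, SE 0.33), Tirap (0.55, SE 0.15) and Tab1 (0.47, SE 0.16) were called higher, the same 3 that were lower in GAL1+ than in GAL1- cells. Both contrasts share the GAL1+ libraries. Of the endogenous ligands, S100a9 (-1.20, SE 0.32) and Hspd1 (-0.31, SE 0.11) were called lower in PDGFRA+ cells. In PDGFRA- over GAL1+ cells 20 were lower and 2 higher, against 6.91% and 13.2% of all genes, with Cd36 at -2.01 (SE 0.46), Cd180 at -1.94 (SE 0.60) and Ly86 at -1.89 (SE 0.53), and with Sarm1 at 1.21 (SE 0.33) and Tab1 at 0.71 (SE 0.16). In PDGFRA+ over GAL1- cells 23 were higher and 0 lower, against 8.26% and 0.011% of all genes, led by Cd36 (4.52, SE 0.46), Ly86 (4.00, SE 0.53) and Cd180 (3.90, SE 0.60). Between PDGFRA+ and PDGFRA- cells limma called none of the 55. At an unadjusted p under 0.05, 11 of the 55 passed, a larger share than the 2137 of 18180 genes in all. This difference in share was not tested. Without T3 the calls fell from 38 to 3 in PDGFRA+ over GAL1+ cells and from 23 to 0 in PDGFRA+ over GAL1- cells. In PDGFRA- over GAL1+ cells they fell from 22 to 0 without T4 and rose to 33 without the PDGFRA- library of T5.

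**Figure D5:**
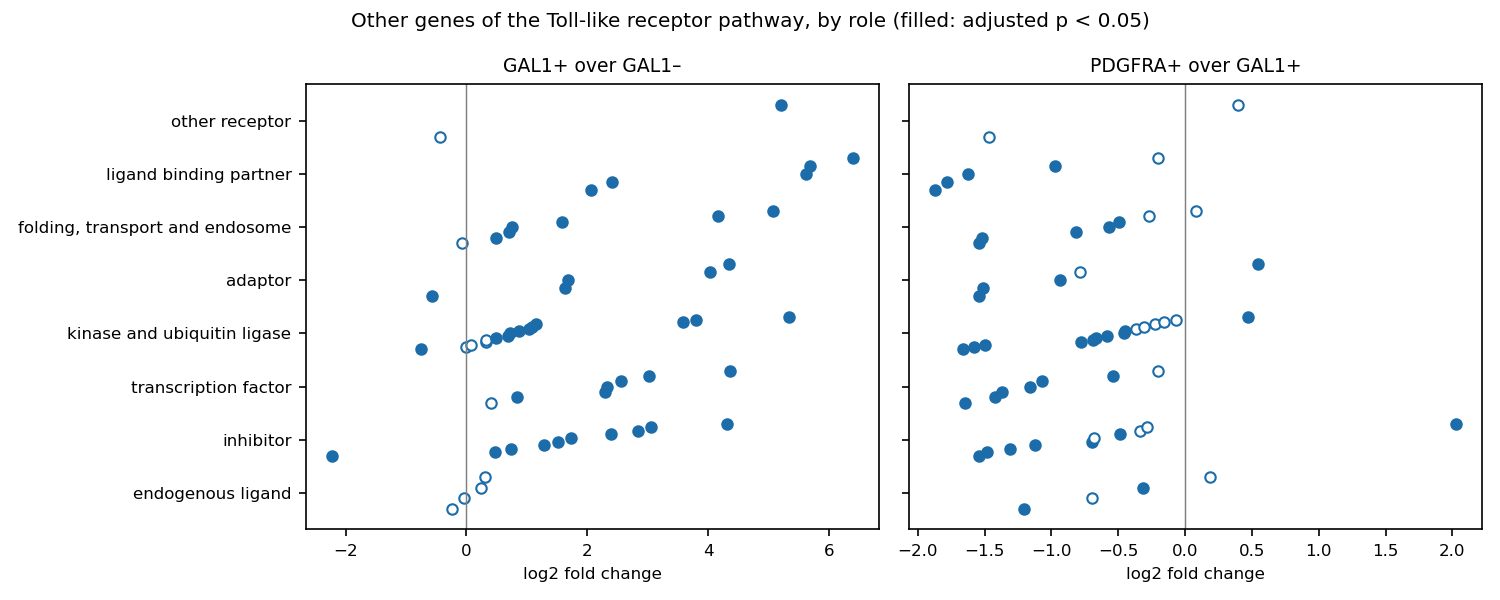
Log2 fold change (x axis) of 55 other pathway genes grouped by role in GAL1+ over GAL1- and PDGFRA+ over GAL1+ cells, filled where the adjusted p is under 0.05. In the left panel ligand binding partners reach 6.39 and endogenous ligands stay between -0.24 and 0.31, and over both panels Sarm1 stands alone at -2.22 and 2.03.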

How the data were processed

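EGFR+ cells from 3 tumors were sorted into 4 populations, and total RNA was made into stranded libraries with the SMARTer Pico v3 kit and sequenced. The authors used fastp for trimming, STAR in its repeated-pass mode for alignment to mm39 and featureCounts for exon counts, with multi-mapping reads split into fractions, then kept genes with CPM above 1 in at least 3 samples, and applied TMM and voom. Tool versions are not given in the sources used here. The deposited values are log2 CPM for 18180 genes, with an offset of 0.5 on each count. Reads were recovered by taking each library's smallest value as 0 reads. Between 41.3% and 59.2% of the values per library were then whole (tolerance 0.01), so no count test was the main test.

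The 12 libraries were fitted together in limma 3.58.1 (R 4.3.3), with terms for population and tumor and eBayes allowing a trend in the variance (residual df 6, prior df 3.49). Two-sided p-values were adjusted by Benjamini and Hochberg over all genes, and genes under 0.05 were called. Libraries with the same tumor number in the labels were taken as one tumor and treated as paired, and the study also fitted tumors as covariates. Deviations from population means correlated at 0.140 to 0.662 over 18 same-tumor pairs. On data simulated for GAL1+ over GAL1-, 200 of 18180 genes were changed. Of log2 changes of 1, 42.2% were called, of log2 changes of 2, 76.6%, and 6.57% of calls were unchanged genes. These rates hold for few changed genes and do not carry over to the measured contrast. There 28.9% of all genes were called higher and 29.3% lower. For the scaling on pan-leukocyte genes, the mean log2 CPM of the 12 genes was subtracted from every gene and the fit repeated. The df given above are those of the unscaled fit. After the subtraction all genes share the same library values, so eBayes borrows more across genes, and the scaled p-values and intervals are likely overconfident. In GAL1+ over GAL1- nearly all genes are then called, so adjusted and unadjusted p-values nearly coincide. In PDGFRA+ over GAL1+, where 66.1% of genes are called higher, they differ more, as for Tlr3 (0.0632 unadjusted and 0.0848 adjusted, by limma).

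The members, the pathway list and the marker lists were chosen with earlier results of these data known. All 10 members are named, and of the pathway list the 3 called genes with the largest positive and negative change in each contrast that moved alike in 3 tumors. Further pathway genes named by role were chosen after their values were seen. The 3 genes most like each member leave out members and predicted genes, and a gene among them and an allele of the model are not reported here. Promoters and gene models come from RefSeq and GENCODE on GRCm38, and no position was carried between builds. Alternatives were the fit with no block, only the compared populations, no trend, robust estimation, voom weights on recovered reads, log2 of CPM plus 1, a filter at log2 CPM above 1 in at least 3 libraries, quantile normalization, median centring, and leaving out each tumor or library. Figures were drawn with matplotlib 3.10.9. Promoters were also searched for an interferon-stimulated response element, and that search was left out after its outcome was seen.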

Additional observations from a re-analysis of the deposited data

How the results depend on the processing

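In GAL1+ over GAL1- cells no alternative turned the direction of any member, and the number called stayed between 9 and 10, with Tlr3 the member that was lost. The block by tumor is the paired fit. With no replicate block, 7 members were called in PDGFRA+ over GAL1-, 2 in PDGFRA+ over GAL1+ and 1 in PDGFRA- over GAL1+, and without a trend 2 in PDGFRA- over GAL1+. Leaving out a tumor or library gave 1 to 10 calls in PDGFRA+ over GAL1+, 0 to 8 in PDGFRA- over GAL1+, 0 to 9 in PDGFRA+ over GAL1- and 0 in PDGFRA+ over PDGFRA-. Against pan-leukocyte genes it gave 2 to 5 in GAL1+ over GAL1- and 0 to 1 in PDGFRA+ over GAL1+, where the macrophage scaling also gave 1 (Tlr3). The cause was not tested.

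Tlr3 in PDGFRA+ over GAL1- turned to -0.092 under quantile normalization and -0.073 under median centring, and ran from -0.11 to 0.18 over the left-out samples. Scaling on the microglia list turned Tlr9 in PDGFRA+ over GAL1+ to -0.13. Scaling on the macrophage list turned Tlr1, Tlr2, Tlr7, Tlr9, Tlr13 and Cd14 in GAL1+ over GAL1- to -0.97, -0.95, -0.70, -1.20, -1.28 and -0.86, and Tlr1, Tlr2, Tlr7, Tlr13 and Cd14 in PDGFRA+ over GAL1+ to 0.042, 0.20, 0.086, 0.25 and 0.22. Over the left-out tumors, values relative to pan-leukocyte genes in PDGFRA+ over GAL1+ ran from -0.078 to 0.16 for Tlr9, from -0.063 to 0.057 for Tlr13 and from -0.099 to 0.0034 for Cd14. In PDGFRA+ over PDGFRA- the left-out samples gave -1.17 to 0.49 for Tlr1, -0.37 to 0.81 for Tlr2, -0.74 to 0.30 for Tlr7, -1.12 to 0.045 for Tlr8, -0.52 to 0.90 for Tlr9, -0.81 to 0.24 for Tlr13 and -0.86 to 0.25 for Cd14.

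Median centring moved the median log2 fold change of all genes to -0.15 in PDGFRA+ over GAL1+ and -0.11 in PDGFRA- over GAL1+, and the share of higher calls from 55.1% to 40.8% and from 65.6% to 46.9%; in PDGFRA+ over GAL1- it moved the median to -0.13, and quantile normalization to -0.15. Depth limits Tlr1, Tlr8 and Tlr12 in GAL1- cells, which rest on 7 to 18.5, 4 to 25 and 4 to 32.2 reads. Ly96 and Sigirr were also low there, at means of -1.53 and -1.16 log2 CPM. The 12 libraries carry 3 tumor numbers, and each tumor gave 1 library per population.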
